A study of Mus musculus with 84 samples.

Results

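The glutathione S-transferases and UDP-glucuronosyltransferases couple glutathione or glucuronic acid to drugs, steroids, bilirubin and lipid peroxidation products. They are described here in the liver and inguinal adipose tissue (IAT) of diabetic db/db mice given rosiglitazone or a compound named S at 3 doses. Members were taken by the gene name that the array design gives: the soluble glutathione S-transferases of the alpha (Gsta), kappa (Gstk), mu (Gstm), omega (Gsto), pi (Gstp), theta (Gstt) and zeta (Gstz) classes, the microsomal glutathione S-transferases (Mgst), and the glucuronosyltransferases of families 1, 2 and 3 (Ugt). A gene was kept where 50% or more of the arrays showed a probe of it well above background, either in the treated mice of a group or in the control pool. This left 36 genes (19 Gst, 3 Mgst and 14 Ugt, on 48 probes) of the 21102 gene names that could be tested in at least 1 tissue, and 1 probe, the brightest, stood for a gene. All 36 were tested in liver and 32 in IAT, where Ugt1a9, Ugt2a1, Ugt2b1 and Ugt2b5 were not tested. In IAT, Ugt1a1, Ugt2a3, Ugt2b35, Ugt2b36, Ugt2b37 and Ugt2b38 passed the filter through some groups or through the pool only, so 26 genes were measured throughout.

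The mice carried BKS Cg-m+/+ Leprdb/J, a strain without a working leptin receptor that becomes obese and diabetic, and were males of 8 weeks on arrival. The treated groups received rosiglitazone (RSG), an agonist of the nuclear receptor PPARγ, or a compound that the labels name only S, per os for 18 days at 28, 84 or 280 µmol/kg, with 6 mice in each of the 12 groups of tissue, compound and dose (named below as RSG 28, S 280 and so on). Each mouse's RNA was hybridised on 2 arrays, with the dyes of both channels exchanged, against a pool made from 6 control db/db mice of the same tissue, which the methods give as vehicle-treated for the RSG study, so that 168 arrays held 72 treated samples and 12 technical repeats of liver RNA. Every value is therefore a log2 ratio of treated mouse over pool, where 1 is a doubling. The pool is 1 control sample: the spread between control mice enters no test, and a p-value against the pool reflects only the spread between treated mice. Nothing is said of the structure of S, which is known only by that code name, and the labels do not tie a liver to an IAT of the same mouse.

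In the treated channel 43.4 to 65.8% of the probes were well above background on the liver arrays, and 61.8 to 78.2% on the IAT arrays. There were 3 libraries that stood apart, with a median correlation over all probes with the other mice of their own group below 0.5: replicate 2 of liver RSG 280 (0.46), replicate 5 of IAT RSG 28 (0.24) and replicate 2 of IAT RSG 280 (0.49). Values without them are given for some of the members whose call they changed. All 16 hepatocyte markers with a probe were above background in every liver group, and all 12 adipocyte markers in every IAT group. Liver showed 7 of the 12 adipocyte markers in every group, without Adipoq, Lep, Plin1, Retn and Aqp7, of which Lep was above background in no group. IAT showed 14 of 20 epithelial and all 20 skeletal muscle markers in every group. In such bulk tissue, fewer cells of a type and less RNA per cell cannot be told apart.

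Glutathione S-transferases attach the thiol of glutathione to reactive electrophiles. The alpha class also reduces lipid hydroperoxides, the mu class takes up epoxides and other electrophiles, and the microsomal enzymes sit in the membranes of the endoplasmic reticulum and mitochondria, where they act on lipid peroxides and, for Mgst2 and Mgst3, can form leukotriene C4. The glucuronosyltransferases are enzymes of the endoplasmic reticulum, and liver is the main site of both families. Ugt1a enzymes share their last exons and take bilirubin and phenols, while Ugt2 enzymes take steroids and bile acids. The genes lie in clusters, with the Gstm genes on chromosome 3, the Ugt2 genes on chromosome 5 and the Ugt1a genes on chromosome 1. The probe for Mgst2 lies at chr3:51770456-51770515, that for Gstm1 at chr3:108140318-108140377 and that for Ugt2b1 at chr5:87991846-87991905 (mm8, the build of the files).

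In liver, members moved in both directions in every treated group. A gene was called where its adjusted p was under 0.05 by limma with Benjamini-Hochberg adjustment over all probes tested in that tissue. In RSG 28 livers 14 members were higher and 15 lower than the pool (29 of 36, beside 59.4% of all probes called). In RSG 84 livers 14 were higher and 12 lower (57.7% of all probes called), and in RSG 280 livers 14 were higher and 11 lower (22.1% of all probes called higher and 29.8% lower). In S 28 livers 14 were higher and 11 lower (52.2% of all probes called), in S 84 livers 15 and 12 (55.3% of all probes called), and in S 280 livers 12 and 17 (28.8% of all probes called higher and 38.1% lower). The median over the 36 members was 0.02 in RSG 280 livers and -0.06 in S 280 livers, beside -0.03 and -0.05 over all probes. The 10 members Gstm1, Gstm3, Gstm4, Gstm5, Gstp1, Gstt2, Mgst2, Mgst3, Ugt1a9 and Ugt2b34, were called higher in all 6 liver groups, as were 12.6% of all probes. The 8 members Gsta1, Gsta2, Gsta3, Gsto1, Ugt2a1, Ugt2a3, Ugt2b1 and Ugt2b36, were called lower in all 6, as were 18.4% of all probes, and Gstt3 alone was called in both directions.

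**Figure D1:**
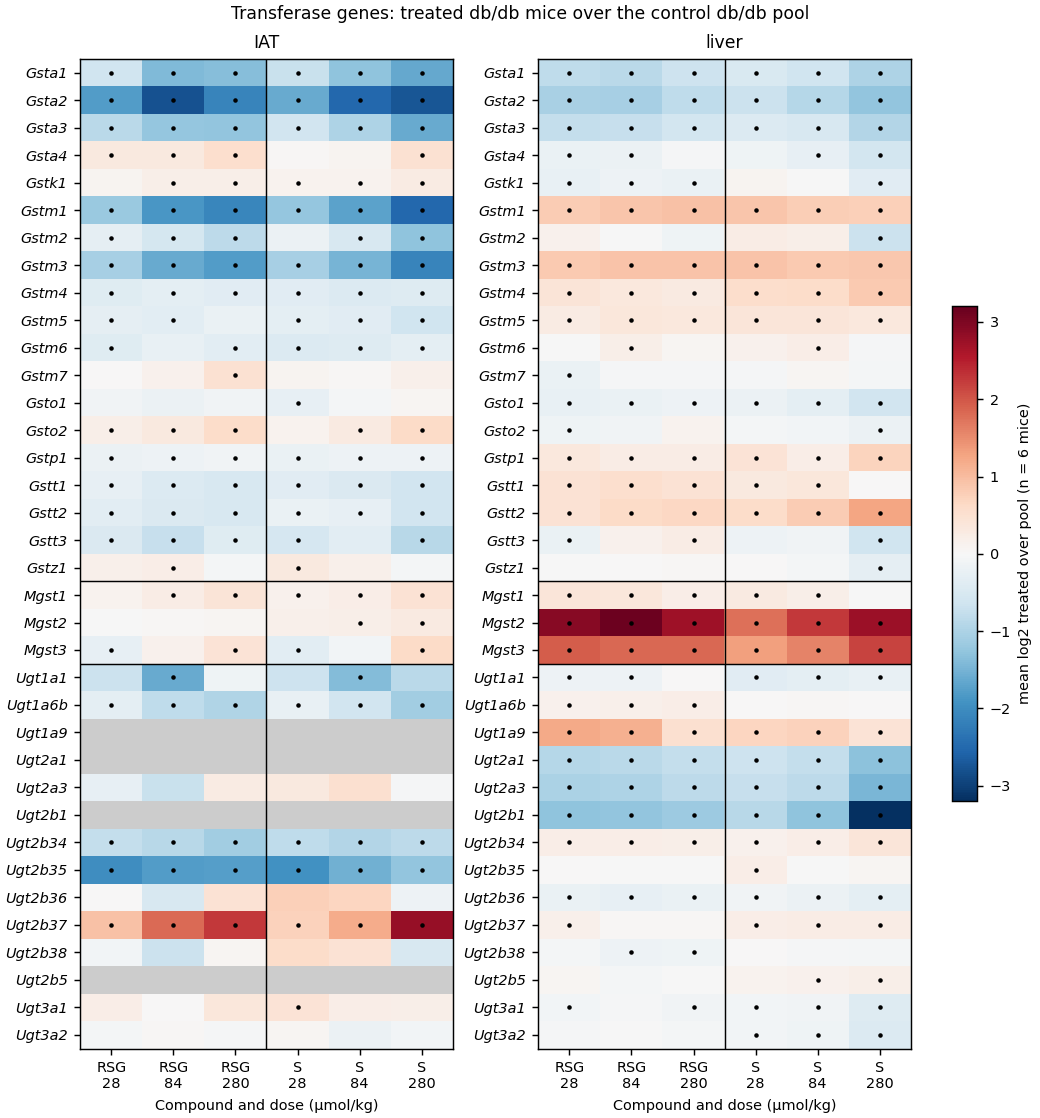
Mean log2 ratio of treated mice over the control pool for the 36 member genes (down) in the 12 groups of tissue, compound and dose in µmol/kg (across), with a dot where the adjusted p was under 0.05 and grey where a gene was not tested in IAT. Ugt2b35 and Ugt2b37 carry dots in IAT, but their values there are a description with no test. Mgst2 in liver (2.73 in S 280) and Ugt2b37 in IAT (2.80 in S 280) were the highest means of each tissue at 280 µmol/kg, and Ugt2b1 in S 280 livers (-3.18) was the lowest.

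The microsomal glutathione S-transferases gave the largest ratios above the pool in liver. Mgst2 had lowest, median and highest log2 ratios of 2.47, 3.01 and 3.16 in RSG 28 livers, 2.50, 3.26 and 3.63 in RSG 84 livers and 2.03, 2.77 and 3.11 in RSG 280 livers. In S livers it had 0.81, 1.90 and 2.18 at 28 µmol/kg, 1.28, 2.52 and 2.60 at 84 and 2.09, 2.69 and 3.33 at 280. All 36 treated livers were above the pool, and the S 28 livers had the lowest median, with no mouse reaching the RSG 28 range. The Mgst2 probe was above background on 60 of 72 liver arrays in the pool. The mean was 2.71 ± 0.41 in RSG 280 livers (SD, n = 6; 6.52-fold over the pool, limma adjusted p = 3.40e-14) and 2.73 ± 0.45 in S 280 livers (6.65-fold, adjusted p = 4.33e-15). Mgst3, a relative with glutathione peroxidase activity, had 1.48, 1.84 and 2.14 in RSG 280 livers and 1.89, 2.19 and 2.39 in S 280 livers, again with every mouse above the pool. Its means were 1.94 ± 0.21, 1.83 ± 0.23 and 1.83 ± 0.22 across the rising RSG doses, and 1.31 ± 0.35, 1.59 ± 0.14 and 2.16 ± 0.23 across those of S (SD, n = 6 each). The 3 probes for Mgst3 gave the same direction, but 1 of them was near background in liver. That probe was above background on 1 of 72 pool arrays and on 3 to 9 of 12 treated arrays per group. It passed the liver filter through treated groups only, so its direction adds no support. Mgst1, the abundant form of liver, averaged 0.21 ± 0.06 in RSG 280 livers (adjusted p = 2.05e-05) and 0.00 ± 0.15 in S 280 livers (adjusted p = 0.965), far below its relatives.

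Gstm1, Gstm3, Gstm4 and Gstm5 of the mu class and Gstt2 of the theta class followed at smaller size, while Gstm2 and Gstt3 of the same classes were called lower in S 280 livers. Gstm1, a main mu-class enzyme of mouse liver, had lowest, median and highest ratios of 0.73, 0.86 and 1.42 in RSG 280 livers and 0.28, 0.73 and 1.40 in S 280 livers, with means of 0.93 ± 0.26 (adjusted p = 3.10e-07) and 0.75 ± 0.38 (adjusted p = 4.55e-06). Gstm3, a mu-class neighbour, had means of 0.91 ± 0.23 in RSG 280 livers and 0.85 ± 0.33 in S 280 livers. Gstm4 was lower than these in RSG 280 livers, at 0.29 ± 0.19, and reached 0.84 ± 0.12 in S 280 livers (adjusted p = 1.34e-11). Every mouse of both groups was above the pool for Gstm1 and Gstm3, and for Gstm4 all but 1 RSG 280 liver. Gstt2, a theta-class enzyme, had 0.52, 0.67 and 0.82 in RSG 280 livers and 1.06, 1.31 and 1.42 in S 280 livers, and the 2 sets did not overlap. Its means across rising S doses were 0.58 ± 0.16, 0.82 ± 0.10 and 1.27 ± 0.16 (SD, n = 6 each). Ugt1a9, which in humans takes phenols, was called higher in all 6 liver groups, but in RSG 280 livers its ratios were -0.91, 0.84 and 1.17, with the lowest in replicate 2, which stands apart, and the mean was 0.51 ± 0.79 with it and 0.80 without it.

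**Figure D2:**
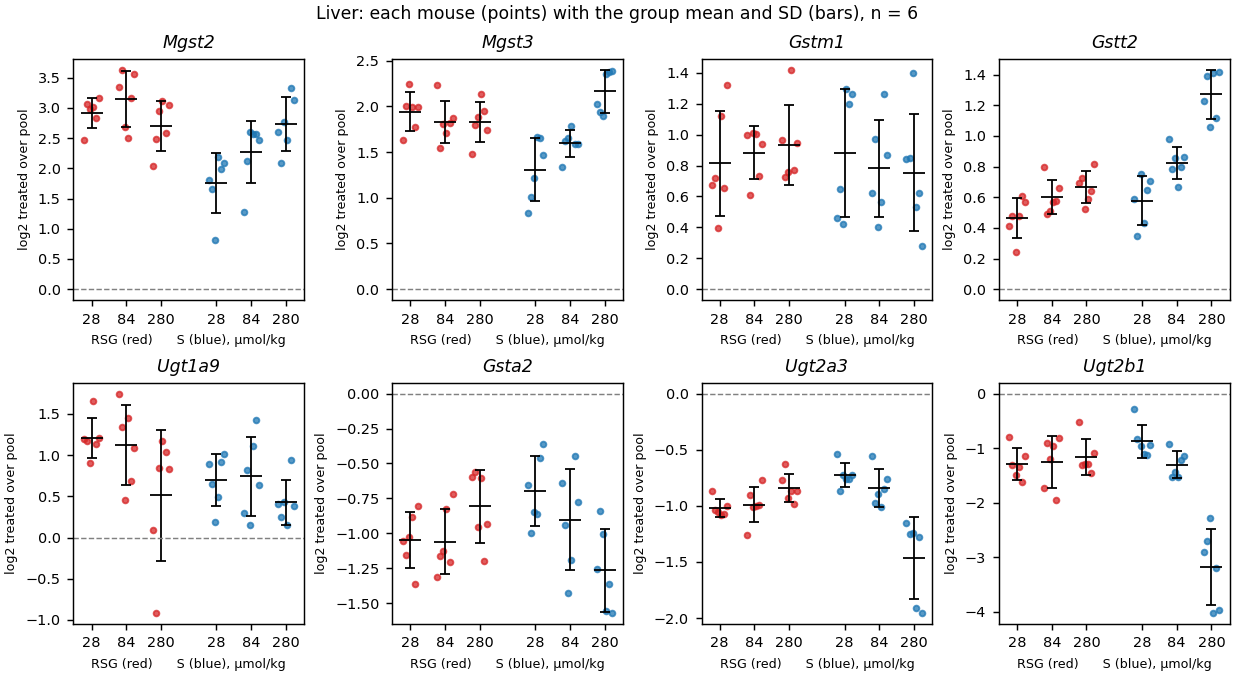
Log2 ratio over the control pool in each of 36 treated livers for 8 genes, by compound and dose in µmol/kg, each point a mouse and each bar a group mean. Mgst2 and Mgst3 lie above 0 in every mouse, Ugt2b1 lies below 0 in every mouse with the S 280 livers (mean -3.18) apart from the RSG 280 livers (mean -1.16), and Ugt1a9 shows the low replicate 2 of RSG 280.

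Among the members below the pool in liver, Ugt2b1, a family 2 enzyme of the group that glucuronidates steroids, showed the largest ratio. Its lowest, median and highest values were -1.61, -1.33 and -0.79 in RSG 28 livers, -1.96, -1.07 and -0.81 in RSG 84 livers and -1.45, -1.29 and -0.52 in RSG 280 livers. In S livers they were -1.12, -0.95 and -0.29 at 28 µmol/kg, -1.54, -1.33 and -0.93 at 84 and -4.01, -3.05 and -2.29 at 280. All 36 livers were below the pool, and the S 280 livers were below every other liver. The mean was -1.16 ± 0.34 in RSG 280 livers (2.23-fold lower than the pool, adjusted p = 6.79e-07) and -3.18 ± 0.70 in S 280 livers (9.04-fold lower, adjusted p = 3.60e-17).

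Ugt2a1, Ugt2a3 and Ugt2b36 of family 2 and Gsta1, Gsta2 and Gsta3 of the alpha class were also lower in every liver group, while Ugt2b34 was higher in each and Ugt2b5 and Ugt2b37 were called higher in S 280 livers. Ugt2a3, whose human form takes bile acids, had -0.98, -0.87 and -0.62 in RSG 280 livers and -1.95, -1.26 and -1.15 in S 280 livers. Ugt2a1, first known from the nasal epithelium, averaged -0.76 ± 0.17 in RSG 280 livers and -1.31 ± 0.32 in S 280 livers (SD, n = 6 each). Ugt2b34 had means of 0.19 in RSG 280 livers and 0.38 in S 280 livers, so that neighbours within the chromosome 5 cluster differed in direction. Gsta2, an alpha-class enzyme, averaged -0.81 ± 0.26 in RSG 280 livers (adjusted p = 1.80e-07) and -1.27 ± 0.30 in S 280 livers (adjusted p = 4.06e-12). Gsta1 averaged -0.67 ± 0.18 and -0.98 ± 0.29 in the same groups, and Gsta3, the mouse enzyme that detoxifies aflatoxin, -0.59 ± 0.20 and -0.94 ± 0.35. Over the 19 Gst genes 8 were higher and 5 lower in RSG 280 livers, against 6 and 10 in S 280 livers. Over the 14 Ugt genes 3 were higher and 6 lower in RSG 280 livers, against 4 and 7 in S 280 livers. Of all probes, 22.1% were called higher and 29.8% lower in RSG 280 livers, and 28.8% and 38.1% in S 280 livers. Beside these falls, the summed signal of the 16 hepatocyte markers had median log2 ratios between -0.47 and -0.21 over the liver groups, and that of the adipocyte list, beside the rises, between 1.08 and 2.09. The single adipocyte genes did not all follow their sum. Of the 11 tested, 8 were called higher and 1 lower in RSG 280 livers, with a median ratio of 0.75. In S 280 livers 6 were higher and 3 lower, with a median of 0.13 beside 1.79 for the sum. The brown adipocyte sum had medians between 1.734 and 2.915 over the liver groups, and the epithelial sum between 0.02 and 0.74. Of the 7 brown adipocyte genes tested, 5 were higher and 2 lower in both liver groups at 280 µmol/kg. Ucp1, Dio2 and Cox8b were above background in no liver group. The part of these shifts in the members' values was not tested.

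The other liver members had means no further than 0.71 from the pool at 280 µmol/kg. Gstp1, the pi-class enzyme, averaged 0.25 ± 0.17 in RSG 280 and 0.71 ± 0.24 in S 280 livers, and Gstm5 0.35 ± 0.21 and 0.34 ± 0.16, each called higher. Gstt1, the theta-class enzyme for small halogenated molecules, averaged 0.47 ± 0.10 in RSG 280 livers (adjusted p = 3.81e-09) and 0.02 ± 0.22 in S 280 livers (0.685). Its neighbour Gstt3 was called in opposite directions, at 0.23 ± 0.18 in RSG 280 livers and -0.63 ± 0.39 in S 280 livers. Gsto1 averaged -0.16 and -0.61 in these groups, Gstk1 -0.22 and -0.35, Ugt2b36 -0.21 and -0.32, and Ugt3a1 -0.10 and -0.40, all called lower. Called lower in S 280 but not in RSG 280 livers were Gsta4 (-0.58 against -0.03), Gstm2 (-0.68 against -0.13), Gstz1, an isomerase of tyrosine breakdown (-0.30 against 0.03), Gsto2, Ugt1a1 and Ugt3a2. Gstm6, Gstm7 and Ugt2b35 were called in neither group, and Ugt1a6b, Ugt2b5, Ugt2b37 and Ugt2b38 were each called in 1, with means no further than 0.25 from the pool.

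The start regions of the Ugt2b genes are shown because Ugt2b1 had the largest fall in liver and Ugt2b37 the highest mean ratio in IAT, and because the chromosome 5 neighbours are close copies whose probes may read each other. Each is the 250 bases before the RefSeq start site on GRCm38.p6, minus strand, printed 5′ to 3′ in lower case, with capitals for AGGTCA, the core hexamer bound by nuclear receptors such as PPARγ and its partners, searched on both strands. The windows are Ugt2b1 at chr5:86926504-86926753, Ugt2b36 at chr5:87092556-87092805 and Ugt2b37 at chr5:87254789-87255038.
Ugt2b1: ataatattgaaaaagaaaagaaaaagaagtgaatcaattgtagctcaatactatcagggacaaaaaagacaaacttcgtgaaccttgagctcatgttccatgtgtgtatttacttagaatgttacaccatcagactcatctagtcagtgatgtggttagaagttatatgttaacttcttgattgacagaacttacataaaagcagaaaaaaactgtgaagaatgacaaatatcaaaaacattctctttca
Ugt2b36: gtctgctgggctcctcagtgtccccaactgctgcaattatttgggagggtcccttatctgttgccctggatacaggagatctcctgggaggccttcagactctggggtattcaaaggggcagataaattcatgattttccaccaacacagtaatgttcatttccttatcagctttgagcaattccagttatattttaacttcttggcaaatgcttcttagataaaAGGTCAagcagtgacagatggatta
Ugt2b37: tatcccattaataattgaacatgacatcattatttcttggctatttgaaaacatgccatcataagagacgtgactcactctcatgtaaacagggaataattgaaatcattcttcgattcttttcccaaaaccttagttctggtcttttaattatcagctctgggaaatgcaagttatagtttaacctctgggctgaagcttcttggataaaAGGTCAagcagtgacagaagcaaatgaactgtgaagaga
The hexamer began 25 bases before the start of Ugt2b36 and 39 before that of Ugt2b37, and these letters were not in the Ugt2b1 window. The Ugt2b36 and Ugt2b37 windows shared a run of 24 identical bases and Ugt2b37 shared one of 82 with Ugt2b38, against 11 between Ugt2b1 and Ugt2b37. Of all 32851 RefSeq windows 14.0% hold AGGTCA, and 7 of the 32 members with a window do (Gstk1, Ugt1a9, Ugt2b35, Ugt2b36, Ugt2b37, Ugt2b38 and Ugt2b5). TGACNNNGC, the core of the antioxidant response element bound by NRF2, was in 10.2% of the windows and in those of 4 members (Gsta3, Gstm5, Gstm7 and Mgst1). A match is a description of the letters only.

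The comparison of RSG with S at one dose asks where the compounds differed. In liver, limma called 3 of 36 members at 28 µmol/kg (0.915% of all probes called), with Mgst2 and Mgst3 higher and Gstk1 lower under RSG. Mgst2 was 1.17 higher in RSG 28 than in S 28 livers (95% interval 0.66 to 1.67, adjusted p = 0.0164), and the 2 sets of 6 mice did not overlap. Mgst3 was 0.63 higher (adjusted p = 0.0164), and Gstk1, an enzyme of mitochondria and peroxisomes, differed by -0.31 (-0.44 to -0.18, adjusted p = 0.0146). All S 28 livers were scanned on 1 day, and with scan day as a block none of the 3 was called: the Mgst2 difference was 0.12 (adjusted p = 0.971), that of Mgst3 0.32 (0.786) and that of Gstk1 -0.12 (0.839). At 84 µmol/kg 0 of 36 members were called (1.86% of all probes), while 10 had an unadjusted p under 0.05. Mgst2 had a difference there of 0.88 (interval 0.38 to 1.38, adjusted p = 0.0573).

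At 280 µmol/kg 17 members were higher and 4 lower in RSG than in S livers, beside 14.3% of all probes called higher and 14.3% lower. With scan day as a block 11 of 36 were called. Within the 1 day that held 2 mice of each group 0 were called, but 2 mice against 2 leave little power. There the 16 differences of named members kept their sign, among them Ugt2b1 at 2.32 (adjusted p = 0.061). The share of all probes under these settings is not given, so the counts are not set against it. The median RSG minus S difference was 0.18 over the 36 members and 0.03 over all probes. Ugt2b1 was 2.02 higher under RSG (interval 1.54 to 2.50, 4.05-fold, adjusted p = 1.10e-07), with both groups below the pool, S further, and no overlap of mice. With scan day as a block that difference was 2.21 (adjusted p = 0.000481). Ugt3a2, a family 3 enzyme whose human form uses other sugars than glucuronic acid, was 0.37 higher (interval 0.28 to 0.46, adjusted p = 1.85e-07). Gsto1, a thiol transferase, was 0.45 higher (adjusted p = 5.97e-07), and Gstt3 0.86 higher (adjusted p = 4.02e-06). Gstt2 went the other way, at -0.61 (interval -0.76 to -0.45, adjusted p = 3.14e-07), as did Gstm4 at -0.55. Mgst2, which differed at the lowest dose, had a difference of -0.03 (interval -0.53 to 0.48) and was not called. Gsta1, Gsta2 and Gsta3 were called here with all mice and not without the RSG 280 replicate that stands apart, when Gsta1 was 0.28 (adjusted p = 0.101), Gsta2 0.41 (0.0575) and Gsta3 0.31 (0.0684).

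**Figure D3:**
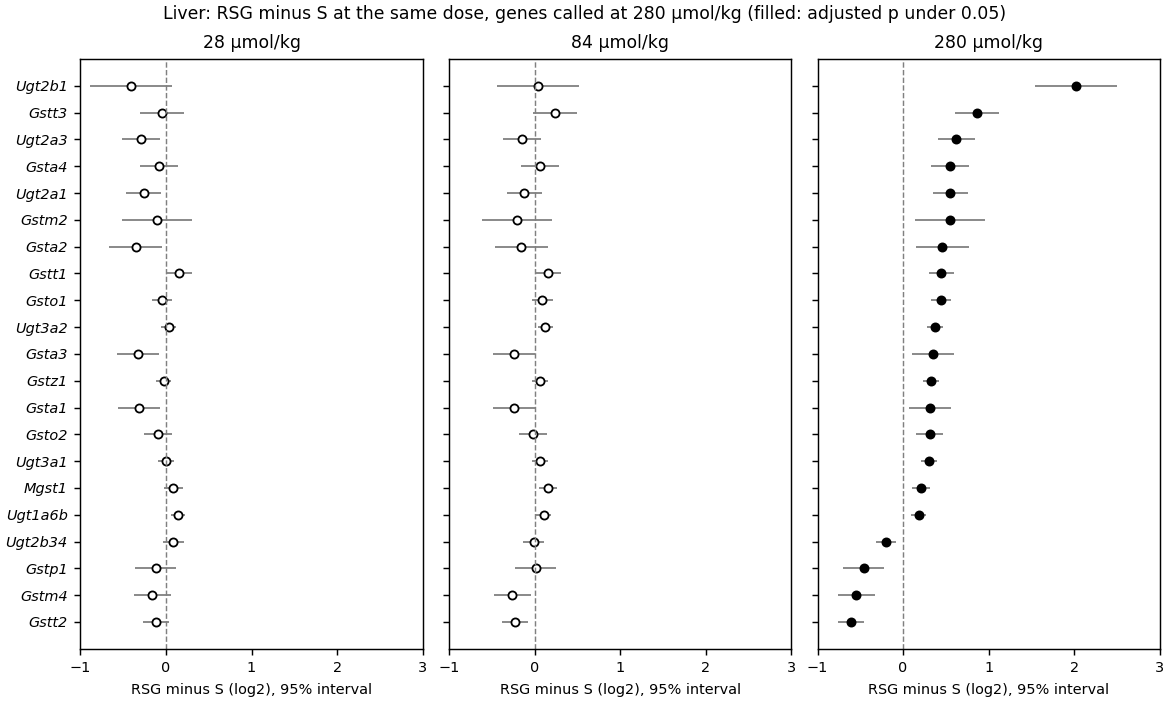
RSG minus S difference in liver (log2, point, with its 95% interval as a line) at 28, 84 and 280 µmol/kg for the 21 members called at 280 µmol/kg, filled where the adjusted p was under 0.05. Ugt2b1 reaches 2.02 at 280 µmol/kg and Gstt2 -0.61.

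The dose comparison set 280 against 28 µmol/kg of the same compound. In RSG livers 0 of 36 members were called (0.0119% of all probes), with 5 at an unadjusted p under 0.05, and the differences nearest to the threshold were those of Gstt3 (0.44, adjusted p = 0.129), Mgst1 (-0.18, 0.130), Gsto2 (0.26, 0.135) and Gstt2 (0.20, 0.204). In S livers 4 members were higher and 17 lower at 280 than at 28 µmol/kg, beside 13.0% of all probes called higher and 16.5% lower. Ugt2b1 differed by -2.30 between these doses (adjusted p = 1.13e-08), Ugt3a2 by -0.37 (2.11e-07) and Gsto1 by -0.41 (1.77e-06). Gstt2 was 0.69 higher (2.80e-08), Mgst2 0.98 (0.00273) and Mgst3 0.86 (9.37e-06). With scan day as a block 6 members were called in this comparison, Mgst2 was 0.08 higher (adjusted p = 0.937) and Mgst3 0.67 (0.0917). Whether the compounds differed in how they changed with dose was tested as a difference of differences, RSG minus S at 280 minus RSG minus S at 28: 15 liver members were called higher and 4 lower (9.75% and 8.29% of all probes). Ugt2b1 had 2.43 (adjusted p = 9.27e-06), Ugt2a3 0.92 (9.70e-05), Mgst3 -0.96 (0.000552) and Mgst2 -1.19 (0.0156). With scan day as a block 2 of the 19 were called, Ugt2b1 (2.44, adjusted p = 0.0318) and Gsto1 (0.57, 0.0300). Ugt2a3 was then 0.72 (0.139), Mgst3 -0.82 (0.187) and Mgst2 -0.46 (0.735), none of them called.

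In IAT most called members were below the pool. In RSG 28 IAT 3 members were higher and 17 lower (46.9% of all probes called), in RSG 84 IAT 6 and 16 (65.6%), and in RSG 280 IAT 7 and 15 (37.1% of all probes called higher and 29.8% lower). In S 28 IAT 5 were higher and 17 lower (47.6%), in S 84 IAT 5 and 16 (55.7%), and in S 280 IAT 7 and 16 (42.7% of all probes called higher and 32.0% lower). These counts are over the 32 tested, and among the 26 measured throughout 6 were higher and 14 lower in RSG 280 IAT, and 6 and 15 in S 280 IAT. Without the libraries that stand apart, Gsta4 and Mgst3 lost their RSG 28 calls, at 0.06 (adjusted p = 0.560) and -0.17 (0.0667). Mgst1, Gstk1 and Gstz1 were then called higher there, and Gsto1 and Ugt1a1 lower. In RSG 280 IAT Gstm7 was then not called, while Gstm5 and Ugt3a1 were. Over the 19 Gst genes, all of which were measured in every group, 4 were higher and 12 lower in RSG 280 IAT, and 3 and 13 in S 280 IAT, with medians of -0.37 and -0.60 beside 0.04 and 0.06 over all probes. Of the 26, 11 were called lower in all 6 IAT groups, namely Gsta1, Gsta2, Gsta3, Gstm1, Gstm3, Gstm4, Gstp1, Gstt1, Gstt2, Ugt1a6b and Ugt2b34, as were 11.5% of all probes tested in IAT. None of the 26 was called higher in all 6, against 17.9% of all probes.

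Gstm1, which was above the pool in liver, was the lowest mu-class gene in IAT. Its lowest, median and highest ratios were -1.63, -1.26 and -0.52 in RSG 28 IAT, -2.20, -1.83 and -1.59 in RSG 84 IAT and -2.38, -2.24 and -1.34 in RSG 280 IAT. In S IAT they were -1.45, -1.28 and -1.04 at 28 µmol/kg, -2.01, -1.68 and -1.51 at 84 and -2.67, -2.63 and -2.17 at 280. Every mouse was below the pool, and the highest RSG 280 value was that of replicate 2, which stands apart. The mean was -2.08 ± 0.39 in RSG 280 IAT (4.23-fold lower, adjusted p = 1.11e-16) and -2.52 ± 0.20 in S 280 IAT (5.74-fold lower, adjusted p = 5.99e-19). Gstm3 averaged -1.78 ± 0.31 in RSG 280 IAT and -2.12 ± 0.17 in S 280 IAT, and Gstm2 -0.84 ± 0.34 and -1.30 ± 0.09. The second Gstm1 probe gave the same direction. The other members lower at the top dose included Ugt2b34 (-1.11 in RSG 280 and -0.84 in S 280 IAT), Gstt1 (-0.52 and -0.62), Gstt2 (-0.52 and -0.60), Gstt3 (-0.39 and -0.89), Gstm4, Gstm6 and Gstp1. Gsto1, Gstz1, Ugt1a1, Ugt2a3, Ugt2b36, Ugt2b38, Ugt3a1 and Ugt3a2 were called in neither top-dose group. Mgst2 averaged 0.07 ± 0.14 in RSG 280 and 0.28 ± 0.18 in S 280 IAT.

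The alpha class was lower in IAT, apart from Gsta4, and varied widely between mice at 28 µmol/kg. Gsta2 had lowest, median and highest ratios of -2.98, -2.61 and 2.55 in RSG 28 IAT and -3.07, -2.77 and -2.39 in S 280 IAT, and its highest RSG 28 value came from replicate 5, which stands apart. Its means were -1.80 ± 2.15, -2.79 ± 0.23 and -2.11 ± 1.04 across RSG doses and -1.61 ± 1.48, -2.51 ± 0.35 and -2.74 ± 0.28 across S doses. Gsta1 averaged -1.37 ± 0.49 in RSG 280 IAT and -1.63 ± 0.25 in S 280 IAT, and in RSG 28 IAT it was -0.63 with all mice and -1.11 without replicate 5. Gsta3 averaged -1.27 ± 0.54 in RSG 280 IAT and -1.60 ± 0.33 in S 280 IAT. Gsta4, which clears 4-hydroxynonenal, was on the other side, at 0.53 ± 0.12 (adjusted p = 0.000457) and 0.48 ± 0.16 (0.000985). Beside these values, the summed signal of the 19 epithelial markers tested in IAT was below that of the pool, with median log2 ratios of -3.21, -2.83 and -1.96 across RSG doses and -3.17, -2.70 and -3.44 across S doses. In RSG 28 IAT that sum ran between -3.35 and 0.69, the highest in replicate 5, and Ocln and Csn2 were above background in no group. Of the 19 epithelial genes, 3 were called higher and 9 lower in RSG 280 IAT (37.1% and 29.8% of all probes). In S 280 IAT 4 were higher and 12 lower (42.7% and 32.0%). The muscle list had medians between -2.84 and -0.77, the macrophage list between -0.88 and 0.07, and the brown adipocyte list between 0.57 and 2.71. The part of these cell types in the members' values was not tested.

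**Figure D4:**
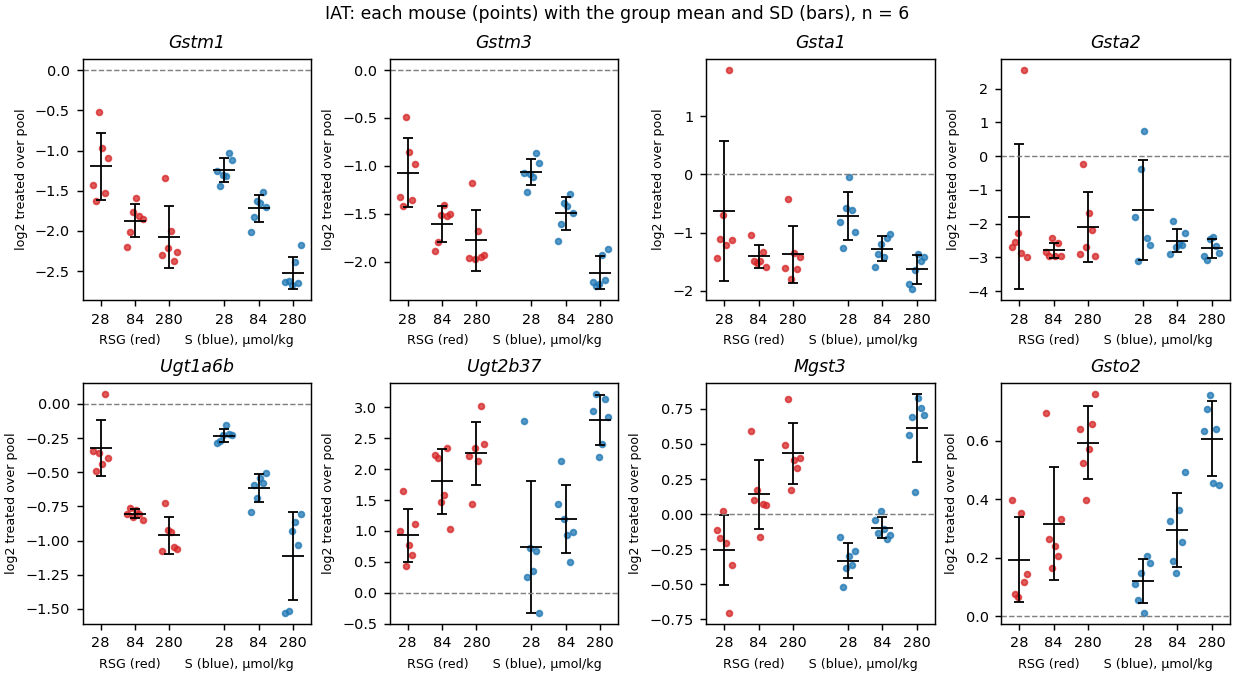
Log2 ratio over the control pool in each of 36 treated IAT samples for 8 genes, by compound and dose in µmol/kg, each point a mouse and each bar a group mean. Gstm1 lies below 0 in every mouse, Gsta1 and Gsta2 show replicate 5 of RSG 28 above 0, and Ugt2b37 is highest in S 280 IAT, at 2.80 on average.

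The glucuronosyltransferases of IAT diverged. Ugt2b37 had lowest, median and highest ratios of 0.44, 0.89 and 1.65 in RSG 28 IAT, 1.03, 1.88 and 2.34 in RSG 84 IAT and 1.44, 2.28 and 3.03 in RSG 280 IAT. In S IAT it had -0.32, 0.51 and 2.78 at 28 µmol/kg, 0.50, 1.09 and 2.13 at 84 and 2.21, 2.90 and 3.23 at 280. The S 28 group held the widest spread and the only mouse below the pool. The probe passed the filter through the treated groups, where it was above background on 9, 11 and 12 of 12 arrays across RSG doses and on 3, 11 and 12 of 12 across S doses, against 21 of 72 arrays in the pool, 5 of 12 of them in each group at 280 µmol/kg. Its ratios, with means of 2.26 ± 0.51 in RSG 280 IAT and 2.80 ± 0.40 in S 280 IAT, are therefore given as a description with no test. In S 28 IAT the pool was above background on 0 of 12 arrays and the treated mice on 3 of 12, so no bound is given there. Beside these values, the summed signal of the 14 hepatocyte markers tested in IAT had median log2 ratios of -0.07, 0.56 and 0.89 across RSG doses and -0.06, 0.59 and 0.76 across S doses. The single genes did not all follow the sum. Of the 14, 3 were called higher and 2 lower in RSG 280 IAT (37.1% and 29.8% of all probes), with a median ratio of 0.35. In S 280 IAT 3 were higher and 3 lower (42.7% and 32.0% of all probes), with a median of -0.11. In S 28 IAT the highest sum, 1.19, was that of replicate 1, the mouse with the highest Ugt2b37 ratio of that group. Ttr and Fga were above background in no IAT group, and the part of hepatocyte RNA in the Ugt2b37 values was not tested. Ugt2b35 passed the filter through the pool (72 of 72 arrays above background) more than through treated mice (2 to 7 of 12). Its means were -1.98, -1.78 and -1.76 across RSG doses and -1.93, -1.55 and -1.26 across S doses, likewise a description. Ugt1a6b, a phenol-conjugating enzyme, averaged -0.32 ± 0.20, -0.80 ± 0.03 and -0.96 ± 0.13 across RSG doses and -0.23 ± 0.05, -0.61 ± 0.11 and -1.11 ± 0.32 across S doses. Its brightest probe lies 6.59 kb beyond the Ugt1a1 probe on chromosome 1 (mm8), on the side of the exons that the Ugt1a genes share. That probe may therefore read other Ugt1a genes too, which was not tested. A second probe, at -105 kb from the Ugt1a1 probe, gave -0.69 in RSG 280 IAT and -0.62 in S 280 IAT. Ugt1a1, the bilirubin-conjugating enzyme, was near background in IAT, above it on 49 of 72 pool arrays and 0 to 7 of 12 treated arrays per group. In RSG 84 IAT, where 8 of 12 pool arrays and 0 treated arrays were above background, it was at least 1.35-fold lower. In RSG 28 IAT it was -0.69 (adjusted p = 0.225), and -1.20 (0.0328) without replicate 5. It was called in neither top-dose group.

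Dose and compound comparisons in IAT were as follows. At 280 against 28 µmol/kg, 4 members were higher and 4 lower in RSG IAT (13.7% of all probes called higher and 11.7% lower), and 7 were higher and 8 lower in S IAT (26.5% and 17.0%). These counts are over the 32 tested and include Ugt2b37, whose IAT values are a description only. Among the 26 measured throughout, 3 were higher and 4 lower in RSG IAT, and 6 and 8 in S IAT. Ugt1a6b differed by -0.64 under RSG (adjusted p = 1.06e-05) and -0.88 under S (1.52e-08), and Gstm1 by -0.88 (6.74e-05) and -1.28 (7.65e-08). Gstm2 differed by -0.55 under RSG (0.000399) and -1.12 under S (1.85e-09). Mgst3 was higher at the higher dose, by 0.69 under RSG (3.73e-05) and 0.95 under S (8.17e-08), and its mean ratios over the pool were -0.26, 0.14 and 0.43 for RSG and -0.33, -0.10 and 0.62 for S. With scan day as a block 4 of the 8 RSG calls were kept (Gstm1, Gstm3, Mgst3 and Ugt1a6b) and 4 lost. Those lost were Gstm2 (-0.44, adjusted p = 0.294), Gsto2 (0.49, 0.0548), Mgst1 (0.27, 0.286) and Ugt2b37, for which no difference is given. Gsto2, an omega-class dehydroascorbate reductase, averaged 0.59 in RSG 280 IAT and 0.61 in S 280 IAT, Mgst1 0.42 and 0.45. Gstm7 averaged 0.48 in RSG 280 IAT and was not called without replicate 2 (0.19, adjusted p = 0.0861), and its second probe gave 0.36, not called, there and -0.58, called, in S 280 IAT. Between the compounds, 0 of 32 members were called at 28 µmol/kg (0.00649% of all probes) with 0 at an unadjusted p under 0.05, 0 at 84 (2.15% of all probes) with 4 at an unadjusted p under 0.05, and 1 at 280 (1.57% of all probes). That one was Gstm2, 0.46 higher in RSG 280 than in S 280 IAT (interval 0.23 to 0.68, adjusted p = 0.0346, no overlap), and it was 0.34 (adjusted p = 0.0669) without the replicate that stands apart. Its neighbours Gstm5 (0.43, interval 0.16 to 0.71, 0.0841), Gstm1 (0.44, 0.12 to 0.76, 0.119) and Gstm3 (0.34, 0.06 to 0.61, 0.161) were not called. The difference of differences called 0 of 32 members in IAT (0.00% of all probes), with 3 at an unadjusted p under 0.05. All 6 S 280 IAT samples were scanned on 2 days that held no other group, so day and group cannot be told apart there.

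The tissues were compared within 1 fit of 72 samples, with each tissue against its own pool. Under RSG at 280 µmol/kg 8 of the 32 members were higher in IAT than in liver and 18 lower (39.2% of all probes called higher and 22.3% lower), and under S 10 and 16 (47.4% and 26.2%). Gstm1 was the widest apart: it averaged -2.08 ± 0.39 in RSG 280 IAT and 0.93 ± 0.26 in RSG 280 livers, an IAT minus liver difference of -3.01 (adjusted p = 2.61e-23), and under S the difference was -3.28 (1.57e-25). Gstm3 differed by -2.69 under RSG and -2.97 under S, Ugt1a6b by -1.17 and -1.14, and Mgst2 by -2.64 under RSG. Gstt2 differed by -1.88 under S (adjusted p = 3.48e-27). The counts include members whose IAT signal was near background, among them Ugt2b37, for which no difference is given. The liver and IAT pools are separate samples, and these differences compare how far treated mice lay from each pool, not levels of the genes.

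**Figure D5:**
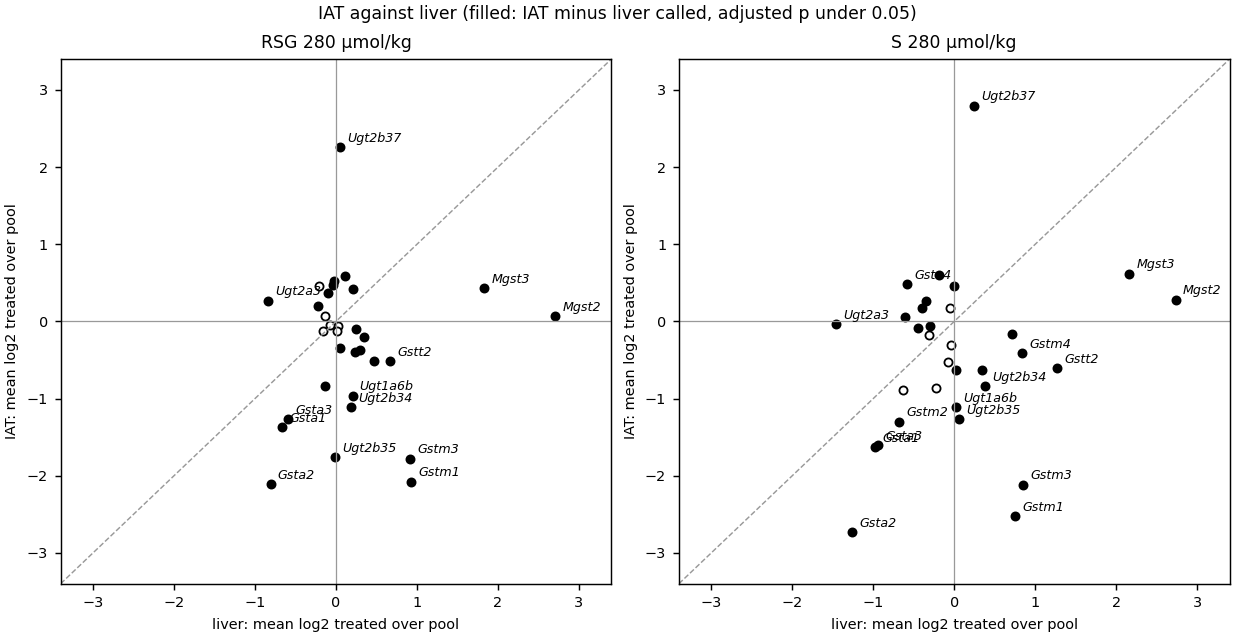
Mean log2 ratio over the pool at 280 µmol/kg in IAT (vertical) against liver (horizontal) for the members tested in both, RSG left and S right, filled where IAT minus liver had an adjusted p under 0.05; the dashed line marks equal ratios. Gstm1 and Gstm3 lie at the lower right in both panels, and Ugt2b37, whose pool signal in IAT was mostly not above background, at the top. The fill of the Ugt2b37 point is not read as a test.

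The genes around these enzymes gave a wider frame, and their counts at 280 µmol/kg stand beside those of all probes: 22.1% called higher and 29.8% lower in RSG 280 livers, 28.8% and 38.1% in S 280 livers, 37.1% and 29.8% in RSG 280 IAT, and 42.7% and 32.0% in S 280 IAT. Of 22 glutathione synthesis and recycling genes tested in liver, 8 were higher and 4 lower in RSG 280 livers, and 10 and 6 in S 280 livers, and of 24 tested in IAT 7 and 7 in RSG 280, and 10 and 8 in S 280. Gpx4, the phospholipid peroxidase, averaged 0.85 in RSG 280 and 0.86 in S 280 livers, and Gpx7 1.18 and 1.88. In IAT, Ggt5, which cleaves glutathione conjugates outside cells, averaged -0.95 in RSG 280 and -0.83 in S 280, and Glrx2, a mitochondrial glutaredoxin, 0.32 and 0.22. Of 11 genes for the supply of UDP-glucuronate, 3 were higher and 4 lower in both liver groups at 280 µmol/kg, and 5 and 4 in RSG 280 IAT and 4 and 4 in S 280 IAT. Ugdh, which makes that sugar, averaged 0.86 in RSG 280 and 1.47 in S 280 livers, and it was below the pool in IAT (-0.38 and -0.33). Slc35d2, a carrier of nucleotide sugars, averaged -0.36 in RSG 280 and -0.37 in S 280 livers, and 0.15 in RSG 280 and 0.20 in S 280 IAT.

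Of 8 export pumps, 7 were higher and 1 lower in RSG 280 livers (22.1% and 29.8% of all probes), and 6 and 1 in S 280 livers (28.8% and 38.1%). Of the 7 tested in IAT, 1 was higher and 4 lower in RSG 280 (37.1% and 29.8%), and 2 and 5 in S 280 (42.7% and 32.0%). Abcc4, a pump of the basolateral membrane, averaged 1.79 in RSG 280 and 2.12 in S 280 livers. Abcc3, a pump for glucuronides, averaged 0.88 and 0.59 in these livers and -1.09 in RSG 280 and -1.40 in S 280 IAT, and Abcg2 averaged -0.65 and -0.51 in IAT. In the NRF2 pathway, the sensor of electrophiles, 9 of 17 genes were higher and 4 lower in RSG 280 livers, and 11 and 2 in S 280 livers, beside 6 and 7 of 18 in RSG 280 IAT and 7 and 7 in S 280 IAT. Hmox1, haem oxygenase, averaged 0.63 in RSG 280 and 0.39 in S 280 livers, and Aox1, aldehyde oxidase, 0.82 and 0.84. In IAT Gclm, the modifier subunit of the first enzyme of glutathione synthesis, averaged 0.49 in RSG 280 and 0.65 in S 280, and Mafg, a partner of NRF2, 0.30 and 0.40.

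Of 18 xenobiotic receptor and P450 genes tested in liver 4 were higher and 9 lower in RSG 280 livers, and 2 and 11 in S 280 livers, and of 19 in IAT 2 and 9 in RSG 280, and 4 and 9 in S 280. Cyp2c55, a P450 enzyme, averaged 1.82 in RSG 280 and 1.65 in S 280 livers, and -2.73 in RSG 280 and -2.63 in S 280 IAT. Hnf4a, a hepatic nuclear receptor, averaged -0.48 in RSG 280 and -0.68 in S 280 livers, and -4.37 in RSG 280 and -4.51 in S 280 IAT, where the probe was above background on 12 of 12 arrays of each group in the pool and on 1 to 6 of 12 in treated mice. Over all probes the median ratio was -0.03 in RSG 280 and -0.05 in S 280 livers, and 0.04 in RSG 280 and 0.06 in S 280 IAT. The lists were chosen with earlier results known, and nothing is drawn from their counts.

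The 12 repeats labelled technical, 6 each of liver RSG 28 and S 28, gave the technical error, and the labels do not say which mouse they came from. The median SD over the 36 members between repeats was 0.035 for RSG and 0.039 for S, against 0.137 and 0.111 between mice. The spread between mice was the larger for 35 of 36 members under RSG and 31 of 36 under S. Mgst2 was among the exceptions under S, with an SD of 0.54 between repeats and 0.50 between mice. Under RSG its SD was 0.18 between repeats and 0.25 between mice. Close paralogs of the Gstm, Gsta and Ugt2b clusters may be read by the same probe, and this was not tested, because the probe sequences were not used here. The probe that stands for Ugt1a6b may likewise read other Ugt1a genes, in all the Ugt1a6b values above.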

How the data were processed

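Liver and inguinal adipose tissue RNA of treated db/db mice was hybridised against a pool of control db/db RNA of the same tissue on Agilent whole-genome arrays in 2 colours. The deposited scanner files were made by the authors with Agilent Feature Extraction 9.5, which subtracted local background and applied Lowess dye normalisation. Their LogRatio column holds a log10 ratio of red over green, deposited per spot. The files also hold a processed signal intensity per channel, deposited by the authors on a linear scale, and flags for spots well above background, deposited as other values. The series table of the authors holds log ratios of the same samples and was used only as an alternative, because 80 of its 84 columns followed their own arrays.

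Each log10 ratio was turned to treated over pool, converted to log2 and averaged over spots and over the dye-swap pair, since both arrays hold the same RNA and count as 1 replicate. The correlation within the 84 pairs before turning ran between -0.944 and -0.643. Control spots were left out. A probe was tested in a tissue where 50% or more of a group's arrays showed it well above background, in the treated or the pool channel (25256 probes in liver, 30796 in IAT and 24746 in both, of 41174). The 36 mice of a tissue were fitted together with limma 3.58.1 in R 4.3.3, with 1 coefficient per group, empirical Bayes moderation and Benjamini-Hochberg adjustment over all probes tested. IAT minus liver used 1 fit of 72 samples. Tables and figures were made with Python 3.11.15, pandas 2.3.3, numpy 2.4.6 and matplotlib 3.10.9. The fit was tested on simulated data. The number of arrays limits the precision, and nothing says whether mice shared cages or litters.

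Values are given, in each tissue, for the 5 highest and 5 lowest members called at 280 µmol/kg of each compound, for the 4 with the smallest adjusted p in each comparison of compounds, doses or tissues, and for the 2 genes of each pathway list with the smallest p at 280 µmol/kg of RSG, beside others that these results lead to. A summed marker signal adds the processed intensities of a list's genes in each channel. Gene names are those of the array design, and 44 of the 48 probes matched a RefSeq accession, with 0 differing symbols. Probe positions are on mm8 as in the files, and start regions come from the RefSeq table on GRCm38.p6. Where a probe was not well above background on any array of a side, only a bound is given, the brighter mean over the higher of the dim probe's own signal and the lowest signal above background. The members and lists were chosen with earlier results of these data known. The difference of differences, the settings with scan day as a random block or with mice of a single scan day, and the one that leaves out the 3 libraries that stand apart were chosen after seeing the data. The alternatives tried were another background correction (normexp with offset 50) and loess, the table of the authors, other detection filters, saturated spots left out, replicate number, slide or scan day as a block, only the groups compared in the fit, the mean over the probes of a gene, the thresholds of the study (unadjusted p under 0.001 and a fold of at least 1.3) and each mouse left out.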

Additional observations from a re-analysis of the deposited data

Results flagged for a closer look

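A set here is the 6 mice of a group for 1 gene, and 204 sets were examined. In 21 of them the highest or lowest mouse lay further from its nearest neighbour than Dixon's 95% limit allows. Chance gives this in about 1 in 20 separate sets. These sets share the same mice across genes, so the count cannot be weighed against that rate. All values are log2 ratios over the pool.

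In liver, Mgst2 was 1.28 in replicate 1 of S 84, below the others, and Gstm1 was 1.42 in replicate 4 of RSG 280, above them. Ugt2b1 was -0.29 in replicate 1 of S 28 and Ugt2a3 was -0.87 in replicate 1 of RSG 28. Gstt3 was -0.56 in replicate 4 of S 84. Mgst1 was 0.50 (0.498) in replicate 1 of RSG 84, and Gstm4 was 1.09 in replicate 2 of S 280.

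In IAT, 4 of these values come from a single mouse, replicate 5 of RSG 28, one of the libraries that stand apart. They are Gsta2 at 2.55, Gsta1 at 1.79, Gsta4 at 1.60 and Ugt1a6b at 0.08 (0.0759). Another 4 values come from replicate 2 of RSG 280, also a single mouse that stands apart, with Gstm1 at -1.34, Gstm3 at -1.18, Gsta1 at -0.42 and Gsta3 at -0.25. The others were Gsta3 at -0.10 (-0.101) in replicate 3 of RSG 28, Ugt2b37 at 2.78 in replicate 1 of S 28, Gsto2 at 0.69 in replicate 1 of RSG 84, Gstm2 at -0.01 (-0.0126) in replicate 4 of RSG 84, Gstm7 at 0.58 in replicate 6 of S 280 and Mgst2 at 0.34 in replicate 2 of S 84. For Ugt2b37 in S 28 the pool was above background on no array, so that ratio is a description only.

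The tissues differed by a test of the difference itself in the fit of both. IAT minus liver in RSG 280 was -3.01 for Gstm1, -2.69 for Gstm3, -1.17 for Ugt1a6b and -2.64 for Mgst2. In S 280 it was -1.88 for Gstt2 (-1.875), -3.28 for Gstm1, -2.97 for Gstm3 and -1.14 for Ugt1a6b.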

How the results depend on the processing

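None of the values of the named members reversed under the alternatives run. Most counts of members called kept within 1.5 times the reported one, and the exceptions follow. With the thresholds of the study the count was 15 in liver RSG 28, 13 in RSG 84, 12 in RSG 280, 15 in S 28 and 14 in S 84, 8 in IAT RSG 28, 13 in RSG 84, 6 in S 28 and 13 in S 84, 10 for liver RSG minus S at 280, 9 for IAT S 280 minus 28, 17 for IAT minus liver under RSG, and 12 in liver and 1 in IAT for the difference of differences. With scan day as a fixed block it was 12 in liver S 28, 9 in IAT RSG 28, 13 in IAT S 28, 10 in IAT S 84, 0 for liver RSG minus S at 28, 11 at 280, 6 for liver S 280 minus 28, 4 for IAT RSG 280 minus 28 and 2 for the liver difference of differences, and it could not be fitted for IAT S 280. With only the groups compared in the fit it was 13 in IAT RSG 28, 5 for liver RSG minus S at 28 and 0 for IAT RSG minus S at 280. Scan day as a random block gave 0 for liver RSG minus S at 28, 3 for IAT RSG minus S at 280 and 1 for the IAT difference of differences, and mice of the same scan day gave 0 for liver RSG minus S at 280. For IAT RSG minus S at 280 the table of the authors, slide as a random block and leaving out the 3 libraries that stand apart each gave 0, and the last gave 13 for IAT RSG 280 minus 28. The cause was not tested. The share of all probes called under each setting is not given, so these counts are not read as results about the members. Leaving out each mouse gave counts between 2 and 3 for liver RSG minus S at 28, 0 and 2 at 84, 0 and 2 for IAT RSG minus S at 280, and 8 and 12 for IAT RSG 280 minus 28.

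With replicate number as a block (replicate block) the count was 1 for liver RSG minus S at 84 and no other count moved by over 1.5 times. The deviations of same-numbered samples from their group means had a median correlation of 0.102 in liver, against -0.0275 for samples with different numbers, and of 0.130 in IAT, against -0.0297. Only 45 of 90 same-numbered pairs in liver and 47 of 90 in IAT were over 0.1, and 16 of 36 livers and 10 of 36 IAT samples correlated best with their own number, so the numbers were not taken to pair the mice.

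The pool is 1 control sample per tissue, and its own spread is in no p-value. In IAT several Ugt genes were near background, so their ratios are compressed or bounded. The table of the authors held the values of other replicates in 3 columns of IAT S 280, and 1 column of IAT S 84 followed none of the arrays.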
